A study of Rattus norvegicus with 12 samples.

Results

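Pain-sensing neurons report heat, cold, acid, irritants and extracellular ATP through 3 families of cation channels. The genes described here are 4 transient receptor potential (TRP) channels (Trpv1, Trpv2, Trpa1 and Trpm8), 3 ATP-gated P2X receptors (P2rx3, P2rx4 and P2rx7) and 2 acid-sensing ion channels (Asic1 and Asic3). They were chosen by name, and their probes were those whose RefSeq accession belongs to one of the 9 rat genes. This gave 12 probes of the 29547 probes used, and 9 genes of the 15014 genes that could be named. Asic1, Asic3 and Trpv1 had 2 probes each and the others had 1.

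RNA was measured on 12 single-colour Agilent arrays, 4 each of sciatic nerve, dorsal root ganglia (DRG) and dorsal spinal cord. Female rats aged 8 weeks received 50 μg of the myelin basic protein peptide MBP84-104 in 5 μl of PBS in the left sciatic nerve, and each array held a pool of 3 animals. Wild-type Sprague-Dawley rats were sampled on day 12 and athymic nude rats (Hsd:RH-Foxn1rnu, which lack a thymus and mature T cells) on day 7, so that rat type, strain and day cannot be told apart. Strain, day and pool size are those of the labels; the methods of the study name heterozygous rats of the nude stock (rnu+/-) as the controls of the nude animals, and the wild-type arrays may be of either kind. In each tissue and rat type, 1 array held the injected side (left nerve, left DRG, or the left dorsal part of the lumbar enlargement) and the other the control. As controls served the PBS-injected right nerve, the right DRG, and left dorsal cord from above the lumbar enlargement. The cord comparison is therefore one of cord levels as much as of sides.

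Cell bodies of the sensory neurons lie in the DRG, and their axons run through the sciatic nerve to the periphery and through the dorsal root into the dorsal horn. TRPV1 opens to heat and capsaicin, TRPM8 to cold and menthol, and TRPA1 to pungent irritants. P2X3 is the ATP receptor of nonpeptidergic nociceptors, whereas P2X4 and P2X7 are best known from microglia and macrophages. ASIC3 is a proton sensor of sensory neurons and ASIC1 is widespread in central and peripheral neurons.

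The more labelled RNA a probe binds, the brighter its spot, and the extraction software marks each spot that is well above the local background. Levels are given below as spot signals and, for comparisons, as log2 signals after subtraction of the median of the array. Median signals differed widely, from 23.5 on the injected nude nerve to 122 on the rostral wild-type cord, and between 59.5% and 76.9% of spots were well above background. One slide of 8 arrays carried all 6 nude samples with both wild-type nerves, and a second carried the 4 wild-type samples of DRG and cord. The labelled tissues matched their neuron and oligodendrocyte markers. Of 8 sensory neuron markers tested, 8 were higher in DRG than in nerve (median log2 difference 6.05, against -0.21 over all 20006 features) and 7 were higher in DRG than in cord. All 4 spinal neuron markers and all 4 oligodendrocyte markers were lower in DRG than in cord. Of these markers, Scn10a could enter the test only through its DRG arrays and Slc6a5 only through its cord arrays. Satellite glia markers did not set DRG apart: of 4 tested, 1 was higher in DRG than in nerve and 3 were lower in DRG than in cord. Among those 3, Kcnj10 entered only through cord. In bulk tissue, fewer cells that make an RNA and less of that RNA per cell cannot be told apart.

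Promoter sequence is shown for 4 of the channels because their tissue patterns, described below, fall into different classes: Trpv1 and Trpm8 were high in DRG, Asic1 was shared by DRG and cord, and P2rx4 was well above background in all 3 tissues. The sequences are from RefSeq (rat assembly GRCr8), with 250 bases before and 50 bases from the annotated start, 5′ to 3′ on the strand of the gene. Capitals mark the letters TGTGGT or ACCACA, the core that RUNX factors bind, and TATAAA or TTTATA, the TATA box. RUNX1 is known for its part in the development of nociceptors.
Trpv1, chr10:58349686-58349985, plus strand: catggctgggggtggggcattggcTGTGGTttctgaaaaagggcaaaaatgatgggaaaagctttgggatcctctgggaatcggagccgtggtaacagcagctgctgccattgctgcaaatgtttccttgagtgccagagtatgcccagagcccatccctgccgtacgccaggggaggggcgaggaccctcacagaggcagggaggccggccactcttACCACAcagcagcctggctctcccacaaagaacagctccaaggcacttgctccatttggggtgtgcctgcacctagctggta
Trpm8, chr9:96351433-96351732, plus strand: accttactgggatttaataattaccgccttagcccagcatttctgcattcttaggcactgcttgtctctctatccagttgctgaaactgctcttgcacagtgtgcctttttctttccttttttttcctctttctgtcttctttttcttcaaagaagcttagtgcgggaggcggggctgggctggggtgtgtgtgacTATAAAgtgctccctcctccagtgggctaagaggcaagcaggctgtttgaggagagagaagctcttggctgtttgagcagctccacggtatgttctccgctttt
Asic1, chr7:132678457-132678756, plus strand: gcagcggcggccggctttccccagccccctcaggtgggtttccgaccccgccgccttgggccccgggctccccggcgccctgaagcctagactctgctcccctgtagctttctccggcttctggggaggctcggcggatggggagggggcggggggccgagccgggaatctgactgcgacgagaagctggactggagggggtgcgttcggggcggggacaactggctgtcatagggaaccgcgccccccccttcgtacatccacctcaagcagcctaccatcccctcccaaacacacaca
P2rx4, chr12:39523040-39523339, minus strand: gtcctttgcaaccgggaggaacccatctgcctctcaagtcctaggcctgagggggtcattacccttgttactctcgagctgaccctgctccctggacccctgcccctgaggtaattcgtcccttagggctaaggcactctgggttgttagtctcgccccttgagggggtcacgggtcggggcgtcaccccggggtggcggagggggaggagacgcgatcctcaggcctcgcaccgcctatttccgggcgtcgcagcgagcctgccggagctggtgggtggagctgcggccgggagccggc
In these windows Trpv1 held 2 RUNX cores, which began at 226 and 32 bases before the start, and Trpm8 held a TATA box at 54 bases before it. Asic1 and P2rx4 held neither. Of 33465 rat promoter windows of this length, 17.3% held a RUNX core and 14.2% a TATA box on either strand. Asic1 had 23 CpG dinucleotides and P2rx4 had 21, above the upper quartile of 19 over all windows, whereas Trpv1 had 6 and Trpm8 had 5, below the median of 7. Among the others, Asic3 and Trpv2 each held a RUNX core at 187 bases before the start. P2rx3, which was also high in DRG, had windows at 2 starts with 8 and 20 CpG dinucleotides, and P2rx7 had 13. Neither P2rx3 window held a RUNX core or a TATA box, so these features did not follow the tissue classes. The Trpm8 start used, at base 96351683, lies inside the gene, which is annotated from base 96315567. A match of letters is a description and does not show binding. Trpa1 had no entry in the table.

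Trpv1 gave its highest signals in DRG. On the 4 DRG arrays its signal was 239 and 152 in wild-type rats (injected side and control) and 75.1 and 60.8 in nude rats. On the nerve arrays it was 11.1 and 9.42 in wild-type and 5.48 and 28.3 in nude rats, and was well above background only on the injected wild-type and the control nude array. On the cord arrays it lay between 6.52 and 8.75, not well above background on any. The DRG arrays therefore did not overlap with those of nerve or cord. Trpm8 had the same order of tissues. Its DRG signal was 401 and 229 in wild-type and 133 and 178 in nude rats. In nerve it was well above background on 1 array, the injected wild-type nerve, with 35.3 against 3.37 to 6.45 on the other 3 arrays, and in cord on none (3.09 to 9.61). The 35.3 is the mean of 2 spots that read 15.6 and 80.1, so the 2 spots of this probe disagreed on this array.

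Trpa1 was well above background on all 4 DRG arrays and on no other array. Its DRG signals were 32.3 and 30.6 in wild-type and 14.9 and 13.9 in nude rats, against 2.29 to 2.99 in nerve and 2.60 to 3.27 in cord. Because the filter required 2 arrays well above background, Trpa1 could enter the test only through DRG, and its difference there was partly fixed by the filter. Trpv2, a relative of TRPV1 that responds to noxious heat at higher temperatures and is found in many cell types, was well above background on all 12 arrays. Its signals were 607 and 394 in wild-type DRG and 312 and 257 in nude DRG, and 331 and 114 in wild-type nerve and 110 and 220 in nude nerve. Cord signals lay between 295 and 376. After median centring, all 4 DRG arrays (3.39 to 3.78) were above the other 8 arrays (1.79 to 3.20).

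P2rx3 showed the plainest separation of the tissues. Its DRG signal was 3390.4 and 2129.9 in wild-type and 1148 and 946 in nude rats. In nerve it was 101 and 35.7 in wild-type and 27.0 and 100.0 in nude rats, and in cord 39.2 and 68.4 in wild-type and 51.5 and 46.8 in nude rats. The probe was well above background on all 12 arrays, and after centring each DRG array lay above each nerve array, and each nerve array above each cord array. P2rx4 had another order. Its nerve signals were 41.5 and 41.1 in wild-type and 12.5 and 38.0 in nude rats, and its cord signals lay between 15.9 and 23.1. In DRG it was 31.2 and 21.7 in wild-type and 8.31 and 11.7 in nude rats, where the injected side of nude rats was not well above background. After centring, nerve (-0.36 to 0.31) lay above DRG (-1.45 to -0.73), and DRG above cord (-1.81 to -1.63). P2rx7 was well above background on 0 of the 12 arrays, although its probe is printed in 10 spots. Its signals ran from 2.28 to 7.24, the highest on the injected-side wild-type DRG, and it was not tested.

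By its brighter probe, Asic1 was the only one of the 9 channels whose centred mean was highest in cord. Its cord signals were 84.5 and 66.6 in wild-type and 67.5 and 66.3 in nude rats, and its DRG signals were 64.3 and 29.2 in wild-type and 11.8 and 15.6 in nude rats. In nerve it read 2.30 to 2.82, not well above background on 4 of 4 arrays. Its second probe was also not well above background in nerve, but its centred mean was -0.86 in DRG and -1.02 in cord, so the order of DRG and cord depended on the probe. Asic3 was dim throughout. It was well above background on both wild-type DRG arrays (46.2 and 14.9) and on the rostral wild-type cord (6.99), but on neither nude DRG array (8.00 and 7.54) and on no nerve array. Its second probe, which has 1 spot, was well above background only on the injected-side wild-type DRG, at 17.7. After centring, the wild-type DRG array of the injected side stood apart (-0.32, against -1.51 to -1.34 on the other 3 DRG arrays).

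**Figure D1:**
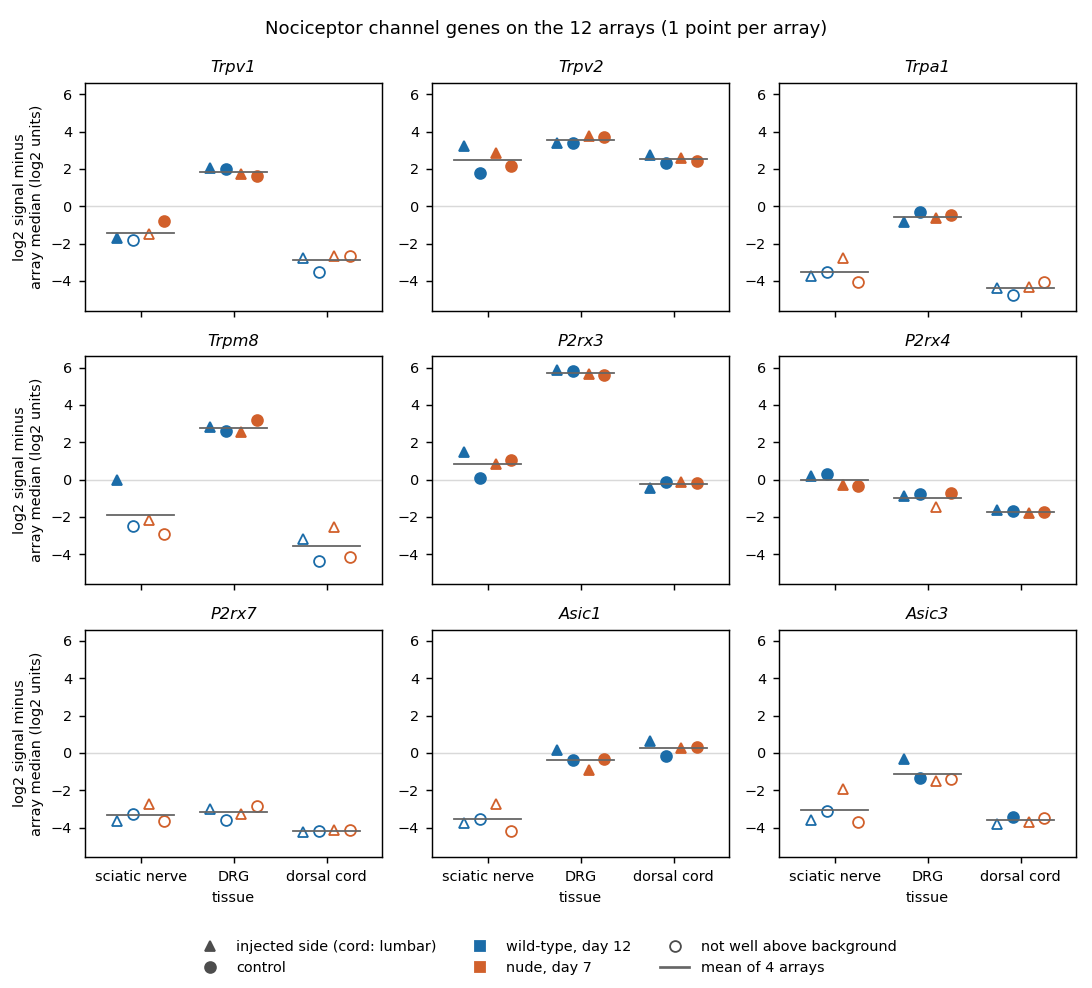
Log2 signal minus the array median (log2 units) for the brightest probe of each gene on the 12 arrays, by tissue. Each point is 1 array, triangles are injected sides (lumbar cord) and circles controls, blue is wild-type and orange nude, hollow points are not well above background, and the line is the mean of 4 arrays. P2rx3, Trpm8, Trpv1 and Trpa1 stand highest in DRG, P2rx4 in nerve and Asic1 in cord, and P2rx7 is hollow on all 12 arrays.

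The differences between tissues were tested with limma. The 2 arrays of a tissue and rat type were averaged first, so that each tissue had 2 values, with rat type as a block. A gene was called at an adjusted p below 0.05 over all 20006 features of a contrast and a difference of at least 2-fold. P-values measure only the spread between these pooled samples, and most of the 8.95 degrees of freedom behind that spread were borrowed from the other features. The 3 contrasts share arrays. A tissue where no array read a probe well above background gives a bound, written as "at least", if the other tissue was measured on all 4 arrays. Except where it is a bound, a fold is the antilog of the log2 difference.

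DRG differed from nerve for most of these channels. Of the 8 channels tested, 7 were called higher in DRG and none lower, where 9.06% of all features were called higher and 12.6% lower. Trpa1, Trpm8 and Asic3 passed the filter only through DRG, so their direction was partly fixed by it. Of the 5 channels that passed without the DRG arrays, 4 were called higher and 0 lower. P2rx3 was 29.4-fold higher (log2 difference 4.88 ± 0.15, SE, n = 2 values per tissue, limma adjusted p = 6.1e-08), by 5.05 in wild-type and 4.71 in nude rats. Trpv1 had a log2 difference of 3.31 ± 0.29 (adjusted p = 2.0e-05), and no fold is given because only 2 of 4 nerve arrays were well above background. Its second probe, well above background on 1 nerve array, gave 4.02. Trpm8 had a log2 difference of 4.70 ± 0.39 (adjusted p = 1.4e-05), and no fold is given because 3 of 4 nerve arrays were not well above background. It was 5.32 without the injected wild-type nerve, whose 2 spots disagreed, 4.08 without the control wild-type nerve and 5.62 on control arrays alone. These 3 are the ATP receptor, the heat receptor and the cold receptor of small sensory neurons. Trpa1 was at least 3.88-fold higher and Asic1 at least 4.42-fold, with limma adjusted p = 0.00026 and 2.3e-05. Asic3 had a log2 difference of 1.95 ± 0.41 (adjusted p = 0.0040), and no fold is given because only 2 of 4 DRG arrays and no nerve array measured it. Trpv2 was 2.10-fold higher (1.07 ± 0.14, adjusted p = 0.00025). P2rx4 went the other way: it was lower in DRG than in nerve by a log2 difference of -0.93 ± 0.25 (adjusted p = 0.013), which is short of 2-fold. Under normexp background correction, which adds an offset of 50 that exceeds most of these signals, only Trpv1, Trpm8 and P2rx3 were called (3 channels). Without the nude control nerve or the wild-type control nerve Trpv2 fell below 2-fold (0.90 and 0.72).

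DRG differed from cord in 6 of the 8 channels, all higher in DRG, where 14.9% of all features were called higher and 15.1% lower. Here too Trpa1, Trpm8 and Asic3 could enter only through DRG, and of the other 5 channels 3 were called higher and 0 lower. P2rx3 was 62.8-fold higher (5.97 ± 0.15, limma adjusted p = 4.3e-08). Trpm8 was at least 57.2-fold higher (adjusted p = 1.9e-06), Trpv1 at least 27.2-fold (adjusted p = 1.8e-06) and Trpa1 at least 6.44-fold (adjusted p = 4.5e-05) by the same test. These 3 TRP channels were well above background on no cord array. Asic3 had a log2 difference of 2.47 ± 0.41 (limma adjusted p = 0.00084), and 2.08 with signals raised to the floor of each array. No fold is given, since only 2 of 4 DRG arrays and 1 of 4 cord arrays measured it, and the latter on spots that read 3.23 and 15.1. Trpv2 was 2.06-fold higher (1.04 ± 0.14, adjusted p = 0.00024), and without the rostral wild-type cord it fell below 2-fold (0.94). P2rx4 was higher by 0.76 ± 0.25 (adjusted p = 0.026), short of 2-fold. Asic1 did not pass the test, with -0.63 and a 95% confidence interval from -1.27 to 0.02. With normexp correction 3 channels were called, again Trpv1, Trpm8 and P2rx3.

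Nerve and cord, neither of which holds the cell bodies of these neurons, differed in 5 of the 8 channels, where 24% of all features were called higher in nerve and 17.1% lower. So large a background leaves little to read from the count itself. P2rx4 was 3.23-fold higher in nerve (1.69 ± 0.25, limma adjusted p = 0.00026) and P2rx3 2.14-fold (1.10 ± 0.15, adjusted p = 0.00017). Trpv1 was higher in nerve by a log2 difference of 1.46 ± 0.29 (limma adjusted p = 0.0017) and Trpm8 by 1.65 ± 0.39 (adjusted p = 0.0046). No fold is given for them, because Trpv1 was well above background on 2 of 4 nerve arrays, Trpm8 on 1, and neither on any cord array. Asic1 was at least 6.82-fold higher in cord (adjusted p = 2.5e-06). For Trpm8 the arrays of nerve and cord overlapped, and the difference was 0.85 (adjusted p = 0.31) with slide as a term and 1.25 (adjusted p = 0.059) without the rostral nude cord. Without the injected wild-type nerve, the only nerve array well above background, it was 1.02, with 1.65 when that array was kept. P2rx3 fell below 2-fold on control arrays alone (0.74) and without the injected wild-type nerve (0.75). Trpv2 did not pass the test (-0.03, 95% confidence interval -0.35 to 0.29). None of the 8 was called under normexp correction.

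**Figure D2:**
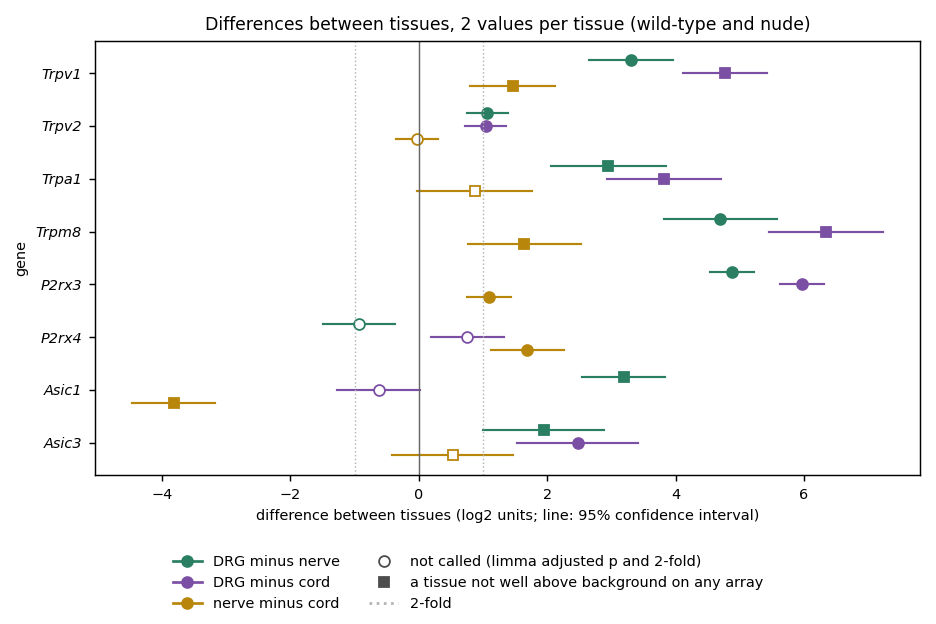
Differences between tissues (log2 units, horizontal axis) with their 95% confidence intervals for the 8 channels tested, from 2 values per tissue. Filled symbols are called (limma adjusted p below 0.05 and at least 2-fold, dotted lines), and squares are contrasts with a tissue where no array was well above background. P2rx3 lies at 4.88 and 5.97 for DRG against nerve and cord, P2rx4 is the only gene to the left of 0 for DRG against nerve, and Asic1 lies at -3.82 for nerve against cord.

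The injected side was set against its control within each tissue and rat type. Each comparison has 1 array per condition, so it has no test and its values describe these arrays. A gene was measured where at least 1 of both arrays was well above background, and a signal below the lowest well-above-background signal of its array was raised to that signal, which makes the ratio a bound.

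In the wild-type nerve, 3 of the 5 channels measured were past 2-fold higher on the injected side, against 5.42% of all features, and none was past it lower, against 4.38%. Trpv2 read 331 on the injected and 114 on the control side (log2 ratio 1.41, 2.66-fold), and P2rx3 read 101 and 35.7 (1.38, 2.61-fold). Trpm8 was not well above background on the control side and was at least 5.50-fold higher on the injected side (2.46), on the 2 discordant spots described above. It entered only through the injected array, so it could not have been lower. P2rx4 was at -0.11, but its control reading is the mean of 2 spots that read 19.4 and 87.2. Trpv1 was at 0.11, a bound. Under normexp correction only Trpv2 was past 2-fold (1.10), with P2rx3 at 0.70 and Trpm8 at 0.59.

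Other cell types differed between the same pair of arrays. Of 7 measured sensory neuron markers 3 were past 2-fold lower and 1 was higher: Avil, which encodes the actin-binding protein advillin, had a log2 ratio of at least 2.57, and Nefh, a heavy neurofilament, was at -2.30. Their summed level over the array median was lower on the injected (6.32) than on the control side (10.46). Of 7 macrophage and microglia markers 1 was past 2-fold, Cd68 at 1.27, with a median of 0.62 and summed levels of 389 and 330. Cx3cr1 (-0.56) and Tmem119 (-0.28) were lower on the injected side. Of 4 skeletal muscle markers 3 were past 2-fold higher, Myh1 at 3.93, with summed levels of 50.2 and 9.98. Both measured adipocyte markers and 2 of 4 Schwann cell markers were past 2-fold lower, Cidec at -3.74 and Prx at -1.35. Of 3 measured T cell markers 1 was past 2-fold higher, Cd247 at 1.49, with a median of 0.99 and summed levels of 6.45 and 4.58. Cd3g, the highest T cell marker on both arrays, was at -0.12, and Cd3e was not well above background on either array. Their part in the values of Trpv2, P2rx3 and Trpm8 was not tested.

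In the nude nerve none of the 4 channels measured was past 2-fold, where 9.21% of all features were past it higher and 12.4% lower. Trpv2 read 110 on the injected and 220 on the control side, on arrays whose median signals were 23.5 and 83.9, and its centred log2 ratio was 0.67. P2rx3 was at -0.22, P2rx4 at 0.07, and Trpv1, which was well above background on the control side only, at -0.69 or lower. The median ratio of all features in this pair was -0.27, and -0.01 after scaling to the 75th percentile, so the values depend on the scaling. Cell type markers differed in this pair too. Of 7 measured sensory neuron markers 5 were past 2-fold lower and 1 higher (median -1.15). Medians were -1.35 for Schwann cell, -2.80 for adipocyte and 0.36 for macrophage and microglia markers. Skeletal muscle markers had a median of -1.11, against 2.09 in the wild-type nerve. P2rx3 thus had a ratio of 1.38 in wild-type and -0.22 in nude nerve. With 1 array per condition the difference was not tested, and neither was the part of these markers in it.

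In the DRG most channels lay close to their controls on both sides. Of 8 channels measured in wild-type DRG, 1 was past 2-fold, against 1.39% of all features higher and 0.749% lower. It was Asic3, with 46.2 on the injected side and 14.9 on the other (1.02, 2.03-fold). The reading of the injected side rested on 1 spot, since the other was marked as an outlier, and with that spot kept the ratio was 0.60. It was 0.62 in the deposited normalized values, 0.71 as the mean over both probes and 0.02 under normexp. Trpv1 (0.03), Trpv2 (0.01), P2rx3 (0.05) and P2rx4 (-0.10) barely differed from the control after centring, while Asic1 was at 0.52, Trpm8 at 0.19 and Trpa1 at -0.54. Raw signals were higher on the injected side for all 8, on an array that was also brighter overall (median signal 88.3 against 57.3).

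In nude DRG none of the 7 channels measured was past 2-fold, where 2.2% of all features were higher and 0.976% lower. Trpm8 was at -0.64, Asic1 at -0.61, P2rx4 at -0.72 (a bound) and Trpa1 at -0.12. Trpv1, Trpv2 and P2rx3 lay between 0.06 and 0.09, but the second Trpv1 probe gave -0.36. Skeletal muscle markers were higher on the injected side of this pair, 3 of 4 past 2-fold with Myh1 at 3.51, and summed levels were 15.6 and 3.50. Macrophage and microglia markers were lower there (median -0.41, Cx3cr1 at -1.05, summed levels 247 and 419). Their part in these values was not tested.

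In the cord 4 channels gave a ratio in each rat type and none was past 2-fold, where 1.14% of all features were higher and 1.41% lower in wild-type rats, with 1.75% higher and 1.18% lower in nude rats. In wild-type rats Asic1 was at 0.81 between lumbar and rostral cord, Trpv2 at 0.42, P2rx4 at 0.08 and P2rx3 at -0.33. In nude rats they were at -0.02, 0.14, -0.05 and 0.09. Asic3 was well above background on the rostral wild-type array only, at a signal too near the floor for a bound. The second Asic1 probe gave 0.97 in wild-type and 0.61 in nude rats, so the probes disagreed in nude cord. Of 4 Schwann cell markers 3 were past 2-fold higher in the lumbar pieces of both rat types, with Prx at 2.60 in nude rats. Of 5 measured sensory neuron markers 2 were past 2-fold lower in nude lumbar cord, with Calca at -2.42, and 0 of 6 were past it in wild-type cord. The astrocyte marker Gfap was at -1.52 in wild-type and -1.10 in nude rats. Their part in the cord values was not tested.

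Sides were also fitted with limma over both rat types, which gave 2 pairs in each tissue. This test was added after the ratios were seen, and it treats rats of different type, strain and day as replicates. In nerve 4 channels were tested and 1 was called: Trpv2 was higher on the injected side by 1.04 ± 0.36 (SE, n = 2 pairs, limma adjusted p = 0.046), where 2.51% of all features were called higher and 4.35% lower. With 1 residual degree of freedom a feature, its spread was taken almost wholly from the other features, and its pairs were at 1.41 and 0.67. Trpv2 was called in 3 of the 4 other normalizations but not under normexp (0.49, adjusted p = 0.94). P2rx3 did not pass (0.58, 95% confidence interval -0.16 to 1.32). Of 8 channels tested in DRG and 4 in cord 0 were called by limma, with 0 and 1 at an unadjusted p below 0.05 and lowest adjusted p values of 1.00 and 0.18. In DRG 0.279% of all features were called higher and 0.0168% lower, and in cord 0.341% and 0.233%.

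**Figure D3:**
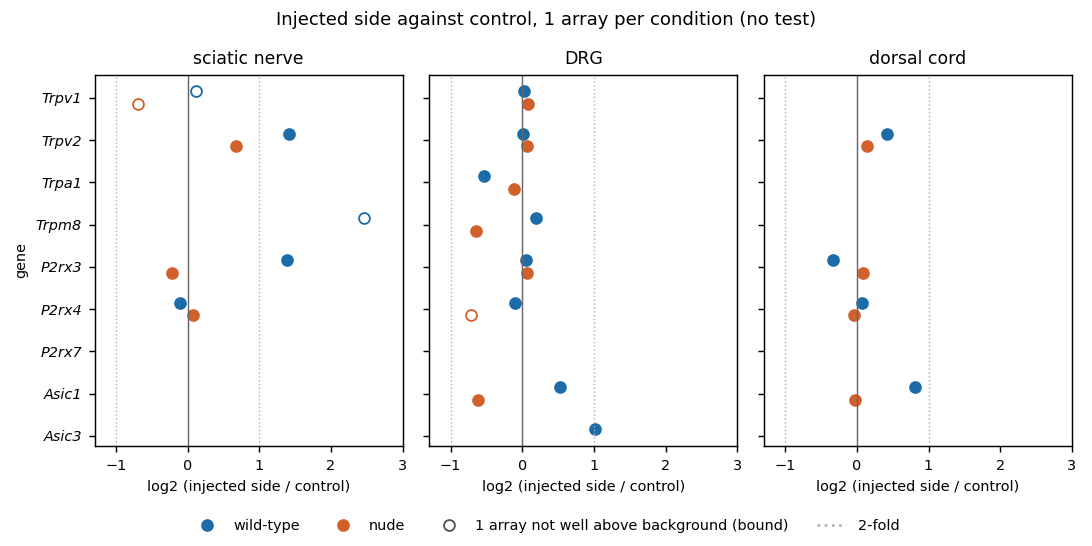
Log2 ratio of the injected side over its control (horizontal axis, log2 units) for each channel in the 3 tissues, with wild-type rats in blue and nude rats in orange. Each point compares 1 array with 1 array, hollow points are bounds in which 1 array was not well above background, dotted lines mark 2-fold, and a gene without a point was not well above background on either array, except Asic3 in wild-type cord, which had no bound. Trpv2, Trpm8 and P2rx3 in the wild-type nerve lie past 2-fold, and Asic3 in wild-type DRG lies on the line.

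Other genes of the same families were set beside them. Of 23 further TRP channels 18 were on the array and 13 were tested. In DRG against nerve 1 was higher and 1 lower (median log2 difference 0.14, against -0.21 over all features), where 9.06% of all features were higher and 12.6% lower. Trpv3, a warmth receptor of skin, was higher in DRG (1.07, limma adjusted p = 0.043), and Trpv4, an osmotic and mechanical sensor, was lower (-1.63, adjusted p = 0.00011). Trpv3 was well above background on 2 of 4 DRG arrays, 1 nerve array and no cord array. It passed the filter only through DRG, so its direction was partly fixed by it. Against cord, 4 were higher in DRG and 3 lower, among them Trpv4 (2.11) and Trpc5 (-2.22), where 14.9% of all features were higher and 15.1% lower. Trpc5 was well above background on 3 of 4 cord arrays and on no other array, so it entered the test only through cord. Between nerve and cord 5 were higher in nerve and 5 lower, against 24% and 17.1% of all features. Trpv4 was highest in nerve (3.74 over cord, adjusted p = 1.8e-07).

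Of the 4 other P2X receptors 2 were tested. P2rx6 was higher in DRG than in nerve (1.40, limma adjusted p = 0.00059) and lower in nerve than in cord (-2.25, adjusted p = 1.3e-05). In the wild-type nerve 3 of the 4 were past 2-fold lower on the injected side, against 4.38% of all features, with P2rx2, a subunit that can pair with P2X3, at -2.10 or lower. All 3 were well above background on the control array only and so could not have been higher.

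Among 6 other acid-sensing and epithelial sodium channel genes 4 were tested. None was called between DRG and nerve, and 2 were lower in DRG than in cord, against 15.1% of all features. Asic4 was at least 41.1-fold higher in cord (limma adjusted p = 2.5e-07) and Asic2 at least 1.81-fold, a bound short of 2-fold. Neither was well above background on any nerve or DRG array, so both entered the test only through cord. Of 7 P2Y receptors, which sense nucleotides through G proteins, 6 were tested. In DRG against nerve 3 of them were lower and none higher, against 12.6% and 9.06% of all features. P2ry14 was 4.61 higher in nerve than in cord on the log2 scale (adjusted p = 8.3e-07), and P2ry13 was -2.14 in DRG against nerve (adjusted p = 4.6e-05). In the wild-type nerve P2ry6 was past 2-fold higher on the injected side (1.17).

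Of 11 genes of ATP release and breakdown 2 were higher and 4 lower in DRG than in nerve, where 9.06% of all features were called higher and 12.6% lower. Entpd3, an ectonucleotidase of sensory neurons, was at least 34.7-fold higher (limma adjusted p = 6.3e-08) and Panx2, a pannexin, was at 2.09. Gja1, a gap junction connexin gene, was at -1.70. Against cord, Entpd3 was not called (0.52) and Panx2 was lower in DRG (-2.47, limma adjusted p = 1.2e-05).

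Between sides, few of these genes were past 2-fold outside the nerve. In the wild-type nerve 2 of 11 measured TRP channels were past 2-fold higher, against 5.42% of all features, with Trpv5 at 1.54 or above. In the nude nerve 1 of 7 was lower, Trpc1 at -1.39, against 12.4% of all features. In wild-type cord 1 of 12 measured TRP channels was past 2-fold higher, Trpc5 at 1.73 or above, against 1.14% of all features. Trpv5 and Trpc5 were well above background only on the injected-side nerve and the lumbar array of these pairs, so neither could have been lower. Entpd1, which breaks down ATP, was lower in lumbar than in rostral cord in both rat types (-1.27 and -1.37, or lower). In each it was well above background on the rostral array only, so it could not have been higher. Among nociceptor channels and receptors, 0 of 16 measured in wild-type DRG and 0 of 10 in nude DRG were past 2-fold. Of all features, 1.39% were past it higher and 0.749% lower in wild-type DRG, with 2.2% and 0.976% in nude DRG. Counts of 0 in lists this short therefore say little. Of 8 measured in nerve, 2 were higher and 1 lower in wild-type rats (5.42% and 4.38% of all features). In nude nerve 2 of 8 were higher and 3 lower (9.21% and 12.4%).

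Partners of these channels and receptors that sensitise them were a further list. Of 19 tested 6 were higher in DRG than in nerve and 3 lower (9.06% and 12.6% of all features), and 9 were higher than in cord and 3 lower (14.9% and 15.1%). Gfra3, the artemin receptor, was 3.78 higher than in nerve on the log2 scale and at least 25.4-fold higher than in cord (limma adjusted p = 1.2e-05 and 7.9e-07). Pirt, a membrane protein that binds TRPV1, was at least 10.49-fold higher than in nerve. Gfra3 and Pirt passed the filter only through DRG, so their direction was partly fixed by it. Of 15 tested further nociceptor channels and receptors 8 were higher in DRG than in nerve and none lower (median 1.60). Among the 8, Scn10a, Kcnk18 and Htr1d passed the filter only through DRG, so their direction too was partly fixed by it. The sodium channel gene Scn10a was at least 225-fold higher than in nerve and at least 298-fold higher than in cord, and Scn11a was at 7.92 and 8.54 (adjusted p = 6.5e-08 and 5.7e-08). Htr3a, a serotonin-gated cation channel, was at 5.77 and 1.86. The DRG minus nerve differences of P2rx3 and Trpm8 (4.88 and 4.70) thus lay within the range of these genes.

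**Figure D4:**
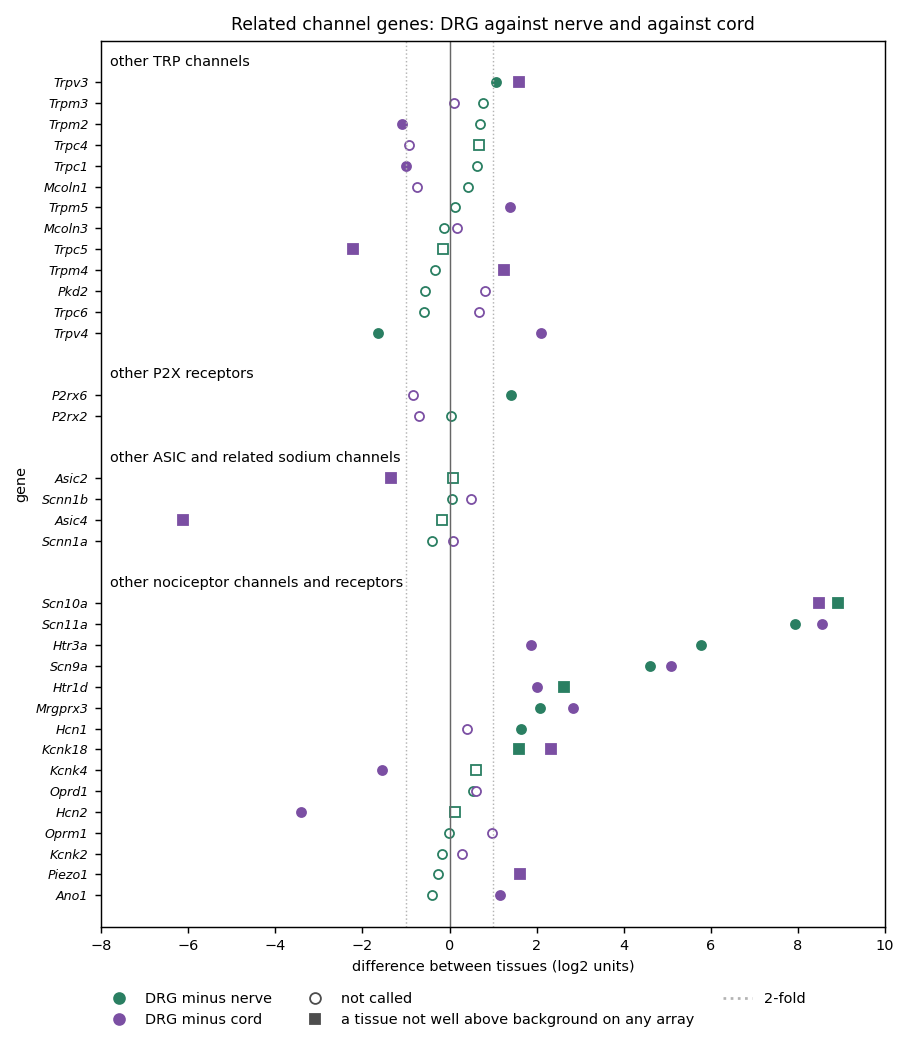
DRG minus nerve (green) and DRG minus cord (purple), in log2 units, for the related genes tested in 4 lists. Filled symbols are called (limma adjusted p below 0.05 and at least 2-fold, dotted lines), and squares are contrasts with a tissue where no array was well above background. Scn10a, Scn11a, Htr3a and Scn9a lie far to the right for DRG against nerve, while the other TRP channels lie between -1.63 and 1.07 there.

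The pattern of each channel over the 12 arrays was set beside that of 11316 named genes. The arrays fall into 3 tissues, so each coefficient mainly describes the tissue levels, and no p-value is given. P2rx3 was most like Serpinb1a (Pearson r = 0.990), A4galt (0.988) and Avil (0.987). A4galt also led for Trpv1 (0.986), followed by Gfra3 (0.985) and Tmem30b (0.978), and Avil led for Trpm8 (0.979), followed by A4galt (0.970) and Agrp (0.969). Trpa1 was most like Chrna6 (0.998), Ppef1 (0.995) and Mgat4d (0.990). Asic1 was most like Hecw1 (0.994), Vstm5 (0.989) and Nptx1 (0.989), P2rx4 like Shox2 (0.977), Arcn1 (0.971) and Slc1a5 (0.961), and Trpv2 like Tmem63c (0.934), Lef1 (0.929) and Wnt16 (0.929). A4galt and Avil each stood among the leading 3 genes of more than 1 channel, A4galt for Trpv1, Trpm8 and P2rx3 and Avil for Trpm8 and P2rx3.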

How the data were processed

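Cy3-labelled total RNA was hybridized to Agilent SurePrint G3 Rat GE 8x60K slides. The deposited intensity values come from Feature Extraction (10.5 per the labels, 10.7.3.1 per the file headers), which subtracted background and set no array against another. The deposited log2 values are the authors' normalized table, in which each of the 12 columns has a median of 5.25. They follow the log2 signal (lowest slope 0.936), and their centring is unknown. Other columns used are flags that the authors' software scored as 0 or 1 per spot.

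Here, outlier spots were dropped, spots of a probe averaged as log2, and the array median subtracted, as the methods name. Of 30367 probes 820 with all spots flagged on an array were left out. A gene took its brightest probe, and 17724 probes were named through RefSeq accessions. No spot was saturated, and no replicate arrays exist, so the methods' own test could not be run. Tissues were compared with limma 3.58.1 in R 4.3.3 (eBayes with trend, two-sided, Benjamini-Hochberg) over features well above background on at least 2 arrays, on 8.95 degrees of freedom. Sides were also fitted with the rat types as pairs, over features well above background on 2 of the 4 arrays. Both fits were tested on simulated data. A bound compares with the higher of the floor of the array and the probe's own signal. Python 3.11.15, numpy 2.4.6, pandas 2.3.3 and matplotlib 3.10.9 were used. Named genes were all 9 channels, and from each list those called with up to the 4 largest differences, the largest side ratio past 2-fold, and the 3 closest genes by Pearson r. Some genes this rule names are not reported here. The channels, lists and rules were chosen with earlier results of these data known. Probe sequences were not searched for cross-hybridization.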

Additional observations from a re-analysis of the deposited data

Results flagged for a closer look

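Asic3 on the injected-side wild-type DRG lay apart from the other 3 DRG arrays (-0.32, against -1.51 to -1.34 after centring), with a gap of 0.857 of the whole range. This exceeds Dixon's critical value for 4 arrays. Of 18 gene and tissue groups examined this was the only one, and chance alone is set to give about 1 in 20. The reading rests on 1 spot.

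In 8 cases the side ratio had opposite signs in wild-type and nude rats. Ratios in both rat types were available for 4 channels in nerve, 7 in DRG and 4 in cord. The share of opposite signs over all features is not given, so nothing is read from the count. With 1 array per condition none of these differences was tested, and rat type comes with day, strain and, in DRG and cord, slide. P2rx3 was at 1.38 in wild-type and -0.22 in nude nerve, and at -0.33 and 0.09 in cord. Trpv1 was at 0.11 and -0.69 in nerve, with 1 array of each pair not well above background. Trpm8 was at 0.19 and -0.64 in DRG. Asic1 was at 0.52 and -0.61 in DRG, where its second probe gave 0.14 and -0.05, and at 0.81 and -0.02 in cord. P2rx4 was at -0.11 and 0.07 in nerve and at 0.075 and -0.05 in cord. Over the alternatives the signs did not stay opposite for Trpv1 in nerve (-0.03 to 0.18 in wild-type, -0.83 to 0.14 in nude rats), P2rx3 in nerve (up to 0.07 in nude rats), Asic1 in cord (up to 0.29 in nude rats) and P2rx4 in cord (up to 0.02 in nude rats).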

How the results depend on the processing

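Over 23 alternatives 526 recomputed tissue differences kept direction and side of the threshold, while 19 weakened, 3 strengthened and 4 reversed. Counts of channels called were 6 to 8 (DRG against nerve), 5 or 6 (DRG against cord) and 4 or 5 (nerve against cord) without each array in turn, where a mean then rested on a single array, and under the other alternatives except normexp, which gave 3, 3 and 0. Its offset of 50 exceeds most of these signals, and the median rather than the mean of the spot pixels was used for it. The reversals were all of Trpv2 in nerve against cord, a difference near 0 (-0.03): without single arrays it ranged from -0.38 to 0.33, with 0.14 without the nude control nerve, 0.01 without the nude lumbar cord, 0.33 without the wild-type control nerve and 0.08 without the wild-type lumbar cord. P2rx4 passed 2-fold in DRG against nerve under quantile normalization (-1.03), in the deposited values (-1.02) and without the nude control DRG (-1.11).

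Between sides, 209 recomputed ratios moved by less than the spread of spots and 42 by more. Channels past 2-fold in wild-type nerve fell from 3 to 1 under normexp. In wild-type DRG the count of 1 became 0 under normexp, in the deposited values, with the mean over all probes and with outlier spots kept. With no filter and no floor it became 3 in nude nerve, 1 in wild-type cord and 1 in nude cord, on signals not well above background. The cause of these shifts was not tested. The labels give no replicate numbers, so pairing was possible only by rat type, and the number of channels called between sides in nerve then went from 1 to 0 under normexp. Signal over background limits Trpa1, Trpm8, Trpv1 and Asic1 to bounds against nerve or cord. It also leaves some differences of Trpm8, Trpv1 and Asic3 without a fold, and P2rx7 without a level.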
